A study of Mus musculus with 35 samples.

Results

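Liver tumors raised by the carcinogen diethylnitrosamine (DEN) were compared with non-tumorous liver (NTL) of DEN-treated mice, with 5 arrays titled DEN tumor and 5 titled DEN NTL out of the 35 arrays of the series. The arrays were chosen by their titles alone. All 10 livers came from mice injected into the abdomen with DEN at 10 mg per kg on day 15 of life and examined at 9 months. Tissue was dissected macroscopically and frozen, and tumor tissue was checked by histology. The strain is not given in the sources used here. By the mouse identifiers, tumor replicates 1 and 4 share an identifier stem, replicates 3 and 5 share another, and replicate 2 has its own, so the tumors were taken to stand for 3 mice. What the stem stands for is not stated, and p-values measure the spread between these samples. Each NTL array has a stem of its own, and none is shared with a tumor, so tissue and animal cannot be told apart in this comparison. Beside these stand 5 livers of untreated mice of the DEN experiment, and tumor and NTL arrays of the LT and MYC models. The LT model (3 and 5 arrays) used tg1223 mice, which express lymphotoxin alpha and beta in liver. LT tumor replicates 1 and 2 also share a stem and were averaged, so the LT tumor mean rests on fewer stems than arrays. The MYC model (5 and 3 arrays) used TRE-MYC with LAP-tTA mice, in which withdrawal of doxycycline turns MYC on under a liver promoter. The 3 MYC NTL arrays carry identifiers that begin with WT, unlike the MYC tumors, and what WT stands for there is not stated.

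DEN is an alkylating carcinogen that the cytochrome P450 enzymes of hepatocytes turn into its active form, and given to infant mice it leads to multiple hepatocellular tumors. Such tumors are known for activating mutations in genes of the MAPK pathway, which carries growth factor signals through a chain of kinases to the kinase ERK. In normal liver, hepatocytes differ by place: those around the central vein make glutamine and many P450 enzymes under Wnt signals, and those around the portal vein break down amino acids and make urea.

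Values are log2 intensities, so a difference of 1 is a doubling. A log2 change is the mean of the 3 tumor mice minus the mean of the 5 NTL mice, given with its standard error from a spread shared by all 8 groups of the series, and a gene was called at a limma adjusted p under 0.05. Group means are over mice (n = 3 tumor mice and n = 5 NTL mice) and are given without an SD unless one is stated. Values of single arrays are listed in the order of replicates 1 to 5. Transcripts of hepatocytes were abundant in both groups: albumin, Alb, read 13.60 to 13.78 in the tumors and 13.59 to 13.76 in NTL, and transthyretin, Ttr, 13.15 to 13.40 and 13.37 to 13.49. These readings lie near the top of the array scale, where arrays resolve differences poorly. Of 12 hepatocyte markers 3 were higher and none lower (2 lower at an unadjusted p under 0.05 by limma), against 14.4% and 14.1% of all genes. All 10 arrays had low Xist (3.72 to 4.41 in tumors, 3.54 to 3.88 in NTL). Among the untreated controls, which the labels call sex-matched, replicate 3 stood apart with Xist at 12.02, so control means below leave it out. This array stayed in the fit of all 8 groups, and so in the spread behind the standard errors and adjusted p-values. In bulk tissue, fewer cells of a type and less RNA per cell cannot be told apart.

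Of 18820 genes, 5375 (28.6%) were called between DEN tumors and NTL, 2714 of them higher (14.4%) and 2661 lower (14.1%). The change was at least 2-fold in 1089, with 639 higher and 450 lower. With each array centred on its median, 2100 genes were called higher and 4096 lower, so the share of higher calls was 33.9% rather than 50.5%. The 5 tumor and the 5 NTL arrays did not overlap in 3674 of the called genes, and in 4217 of all genes (22.4%). The balance of higher and lower calls thus depended on the scaling.

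The largest rises were taken from called genes whose tumor and NTL arrays did not overlap. They included proteins of the cell surface and secretory route with enzymes of amino acid synthesis. Gldn, encoding the extracellular protein gliomedin, read 10.18, 10.79, 9.95, 10.51 and 10.11 in the tumors, against 5.96, 6.08, 5.46, 5.90 and 5.74 in NTL. All 5 tumors lay far above all NTL arrays, and the change was 4.56 ± 0.13 (adjusted p = 1.47e-19). Asns, asparagine synthetase, read 10.22, 11.10, 10.63, 9.63 and 10.24 in the tumors, against 5.97, 6.62, 7.26, 6.31 and 6.50 in NTL, a change of 3.96 ± 0.64 (adjusted p = 2.68e-05). Psat1, an enzyme of serine synthesis, read 8.82, 9.53, 8.93, 10.59 and 8.99 in the tumors, against 5.37, 5.91, 5.44, 5.51 and 5.64 in NTL, a change of 3.82 ± 0.30 (adjusted p = 1.87e-10). Tumor 4 was the highest for Psat1 but the lowest of the tumors for Asns. Tmem54 was higher by 4.38 ± 0.30, and its tumors fell apart into levels of 10.94 and 10.48 in replicates 2 and 4 and 8.48 and 8.06 in replicates 3 and 5.

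Klrb1b, which encodes a C-type lectin receptor of natural killer cells, read 9.08, 11.63, 10.16, 11.70 and 8.84 in the tumors, against 7.02, 7.37, 6.27, 7.16 and 6.36 in NTL, a change of 3.67 ± 0.28 (adjusted p = 1.23e-10). It was the single one of 20 measured NK lectin receptors and ligands that was called in either direction, against 28.6% of all genes. By limma at an unadjusted p under 0.05, 3 were higher and 3 lower. Of the 20, 14 were dim, with a mean level below 4.54, the highest lower quartile of any array over the tested genes. Of 9 markers of NK cells, Prf1 was called higher (0.63) and Eomes lower (-0.39), and the mean level of the 9 lay between 4.12 and 4.49 in tumors and between 4.14 and 4.76 in NTL, against a lower quartile of 4.13 to 4.24 on the arrays. The Prf1 call was lost without tumor replicate 2, without tumors 3 and 5, with the replicate block and with the compared groups fitted alone (adjusted p up to 0.165), its change was 0.95 without tumors 1 and 4, and the Eomes call under most alternatives.

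Among the other large rises, the tetraspanin Tspan8 changed by 3.82 ± 0.43, the liver-intestine cadherin Cdh17 by 3.66 ± 0.36, and Prom1, the surface protein CD133, by 3.57 ± 0.47. Tumor replicate 1 was the lowest tumor for each: it read 6.91 for Tspan8, 5.36 for Cdh17 and 6.90 for Prom1, while the other 4 tumors read at least 9.75, 6.81 and 8.80. With the mean of its probe sets, the change of Prom1 was 1.89. The Golgi membrane protein Golm1 changed by 3.35 ± 0.37, the brush-border myosin Myo7b by 3.41 ± 0.28, the kinesin heavy chain Kif5c by 3.26 ± 0.12, the carboxypeptidase-like protein Aebp1 by 3.22 ± 0.23, Elapor1 by 3.40 ± 0.61, the protease inhibitor-like gene Wfdc15b by 3.28 ± 0.47 and Bex1 by 3.27 ± 0.32. Called rises in which the groups overlapped were left out here by the rule of choice, such as Csn3 (3.90), Afp (3.48) and Cacna1b (3.37).

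The largest falls, likewise taken from called genes without overlap, were in enzymes and carriers of lipid, steroid and drug metabolism. Cyp4a14, a fatty acid hydroxylase, read 6.65, 5.90, 5.88, 5.99 and 6.48 in the tumors, against 12.08, 12.03, 12.07, 12.33 and 12.09 in NTL, a change of -5.99 ± 0.90 (adjusted p = 9.98e-06). Cyp2b10, a P450 enzyme induced by drugs, read 5.23, 6.19, 4.77, 5.75 and 6.08 in the tumors, against 10.76, 11.63, 11.18, 10.36 and 10.93 in NTL, a change of -5.27 ± 0.66. Sult2a8, a sulfotransferase for bile acids, read 6.92, 5.28, 5.32, 6.20 and 6.29 in the tumors, against 11.28, 11.27, 11.16, 11.57 and 11.73 in NTL, a change of -5.52 ± 0.46. In each of these genes the highest tumor lay more than 4 log2 units below the lowest NTL array. Cyp8b1, the sterol 12-alpha-hydroxylase of bile acid synthesis, changed by -4.03 ± 0.74, and tumor replicate 1, at 8.61, kept more of it than the other tumors (6.11 to 6.45).

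The fatty acid elongase Elovl3 changed by -5.86 ± 1.18, the organic anion transporter Slco1a1 by -4.81 ± 1.31, and the carboxylesterases Ces3b, Ces1e and Ces1g by -4.33 ± 0.46, -4.06 ± 0.30 and -3.78 ± 0.36. Etnppl, which breaks down phosphoethanolamine, changed by -3.97 ± 0.53, the lipid droplet protein Fitm1 by -4.02 ± 0.75, Cyp2c54 by -3.99 ± 0.80 and the transporter-family gene Slc15a5 by -3.91 ± 0.56. Genes of the Cyp, Ces and Sult families have close paralogs that a probe set can share. The calls of Hsd3b5 (-4.03 ± 1.44), a steroid dehydrogenase, and Cyp4a12b (-3.90 ± 1.47), a fatty acid hydroxylase, both abundant in male mouse liver, were less firm: their adjusted p of 0.0355 and 0.0467 reached 0.101 and 0.162 when arrays were left out, each call being lost without tumor replicate 2, without tumors 3 and 5, or without NTL replicates 2, 3 or 4. That of Hsd3b5 was also lost without tumors 1 and 4, and that of Cyp4a12b without tumor replicate 3 or NTL replicates 1 or 5. Neither call was lost with only the groups compared. For Cyp4a12b the SD was 0.18 over NTL and 1.26 over the untreated controls, where replicate 3 was kept in the fit. The part of that array in these calls was not tested.

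**Figure D1:**
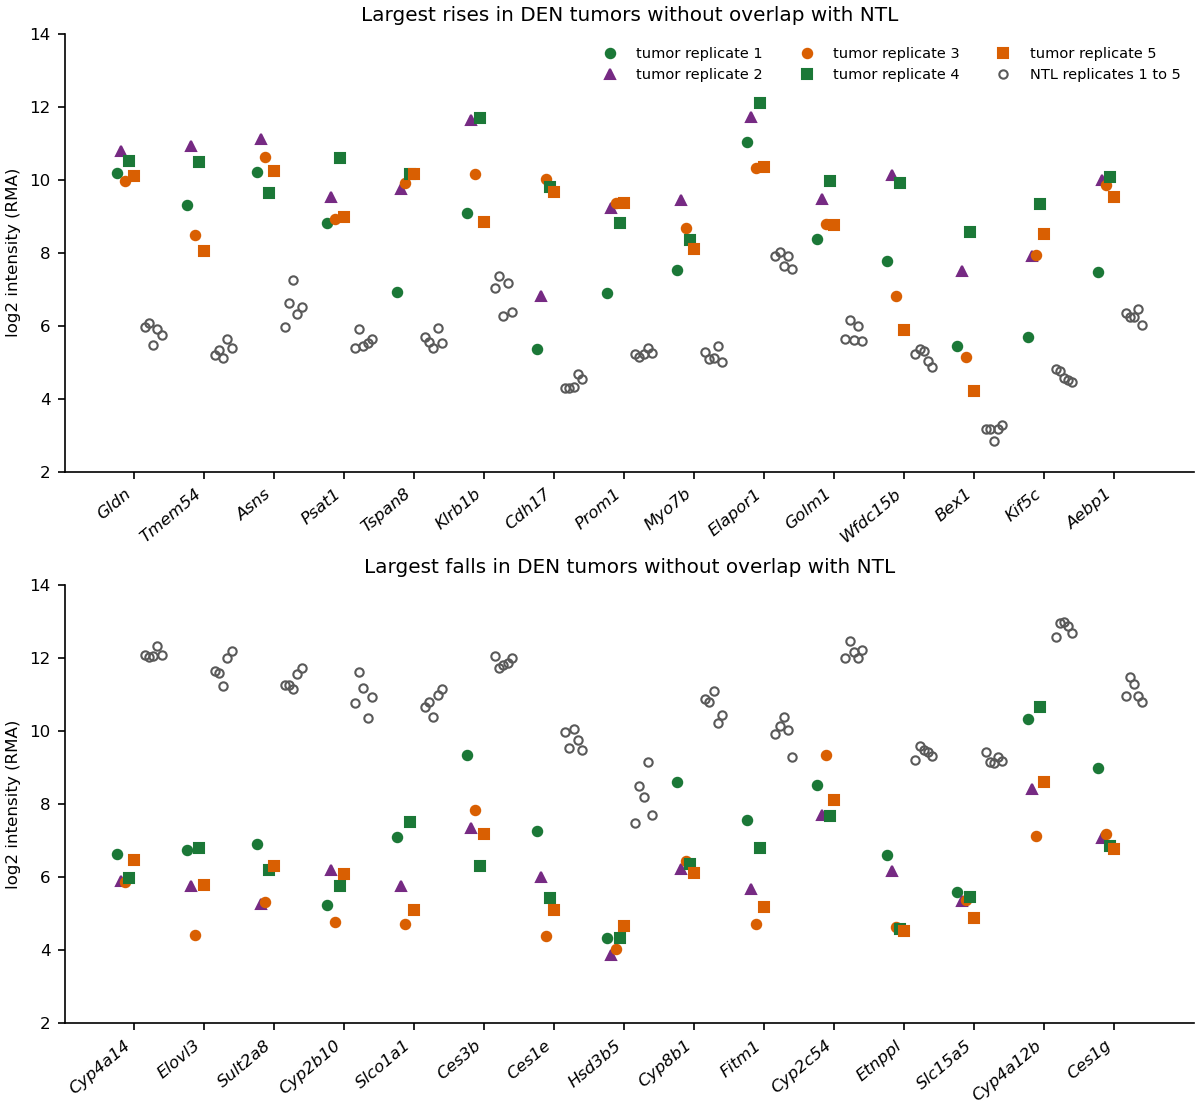
Log2 intensity (y axis) of the 15 largest rises (upper panel) and 15 largest falls (lower panel) without overlap, with the 5 tumor arrays as filled symbols left of the 5 NTL arrays as open circles. Symbols of one colour are tumors with one identifier stem. Gldn and Slc15a5 show tightly grouped tumors, whereas Bex1 spans 4.20 to 8.57 among the tumors.

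Untreated livers give the background for these genes, with NTL shared between both contrasts. The lowest NTL array read 6.27 for Klrb1b, above the control mean of 4.04. Gldn and Tspan8 had lowest NTL values of 5.46 and 5.39, again above their control means of 4.07 and 4.29. Psat1 had a lowest NTL value of 5.37 and a control mean of 4.82. Among the falls, Cyp2b10 averaged 10.97 in NTL and 11.54 in controls, and Ces3b 11.89 in NTL and 11.88 in controls. Other falls had control means below the NTL mean: Cyp4a14 averaged 12.12 in NTL and 8.94 in controls, Elovl3 11.74 in NTL and 10.10 in controls, and Fitm1 9.96 in NTL and 8.46 in controls. For Elovl3 the control arrays were far apart, from 6.52 to 11.91, and reached into the NTL range of 11.23 to 12.20.

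Short sequence motifs of transcription factors were looked for in the window from 250 bases before to 50 bases after the gene start (RefSeq, GRCm38.p6), on both strands, for 18155 windows of 14749 tested genes. CAAAGT, the core letters of an HNF4 site, stood in 19.1% of 470 windows of genes called lower by at least 1 log2 unit, in 12.1% of 628 windows of genes called higher by as much, and in 13.2% of all windows. TGANTCA, the AP-1 site, stood in 8.51% of the windows of falls, 9.55% of those of rises and 6.74% of all. The shares for falls, rises and all were 36.4%, 36.6% and 37.5% for CCAAT, 7.02%, 7.17% and 8.31% for CACGTG, and 6.6%, 5.57% and 6.05% for GTTAAT. For TTCNNNGAA they were 6.6%, 6.69% and 7.71%, and for TGACGTCA 1.06%, 2.07% and 2.41%. A match is a description of letters and not evidence of binding.

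The 3 largest falls and the 3 largest rises whose window held these letters are shown, since they carry the motif beside the strongest changes; capitals mark the first match, CAAAGT or its reverse complement ACTTTG in the falls and TGACTCA in the rises, with up to 60 bases on each side, read 5′ to 3′ on the strand of the gene. Sult2a8 lies on the minus strand (chr7:14446723-14446837, first matched base 201 bases before the start), as do Hsd3b5 (chr3:98645510-98645635, 41 before) and Cyp8b1 (chr9:121916482-121916555, 242 before). Gldn (chr9:54286354-54286480, 72 before) and Tmem54 (chr4:129105449-129105575, 21 before) lie on the plus strand, and Prom1 (chr5:44101758-44101884, 88 before) on the minus strand.
Sult2a8: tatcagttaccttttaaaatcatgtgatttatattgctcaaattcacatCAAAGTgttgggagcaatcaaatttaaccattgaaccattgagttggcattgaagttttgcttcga
Hsd3b5: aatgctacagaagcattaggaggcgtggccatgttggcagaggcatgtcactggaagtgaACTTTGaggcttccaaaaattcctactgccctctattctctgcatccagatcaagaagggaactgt
Cyp8b1: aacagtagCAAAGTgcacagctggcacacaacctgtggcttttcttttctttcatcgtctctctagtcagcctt
Gldn: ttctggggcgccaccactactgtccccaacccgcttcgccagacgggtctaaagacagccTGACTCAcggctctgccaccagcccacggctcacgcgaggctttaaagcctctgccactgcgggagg
Tmem54: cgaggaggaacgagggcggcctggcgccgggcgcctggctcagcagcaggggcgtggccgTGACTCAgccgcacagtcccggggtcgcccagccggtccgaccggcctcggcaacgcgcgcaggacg
Prom1: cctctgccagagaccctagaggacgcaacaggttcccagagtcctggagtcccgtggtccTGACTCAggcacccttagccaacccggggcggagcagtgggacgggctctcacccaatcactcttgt

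Some large changes were almost the same in every tumor. Among rises of at least 2 log2 units, the stress caspase Casp12 varied least, with 8.20, 8.17, 8.35, 8.39 and 8.23 in the tumors, against 5.72, 6.29, 6.07, 5.71 and 5.69 in NTL, and a change of 2.35 ± 0.33 (adjusted p = 3.55e-06). The collagen receptor kinase Ddr1 read 8.46, 8.31, 8.61, 8.56 and 8.45 in the tumors, against 6.05, 5.92, 5.98, 5.99 and 5.76 in NTL, a change of 2.51 ± 0.18, and the tetraspanin Cd63 read 9.37, 9.51, 9.71, 9.51 and 9.37 in the tumors, against 7.05, 6.78, 6.91, 6.90 and 6.93 in NTL, a change of 2.58 ± 0.35. The 5 tumors stayed within 0.35 of each other in each of these genes. The immediate early gene Egr1 changed by 2.41 ± 0.47, the focal adhesion protein Tes by 2.42 ± 0.26, Lysmd2 by 2.16 ± 0.22, Golm2, a relative of Golm1, by 2.50 ± 0.27 and Sytl5 by 2.10 ± 0.45.

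The most even falls were those of Trhde, an ectopeptidase that degrades thyrotropin-releasing hormone, of the sulfotransferase Sult5a1 and of the acyltransferase Mogat1. Sult5a1 read 4.89, 4.93, 4.68, 4.91 and 4.85 in the tumors, against 7.89, 8.59, 8.71, 8.57 and 8.97 in NTL, a change of -3.68 ± 0.62 (adjusted p = 4.24e-05). Trhde changed by -2.60 ± 0.51, Mogat1 by -2.52 ± 0.34, the endothelial lipase gene Lipg by -2.66 ± 0.40, the flagellin receptor Tlr5 by -3.20 ± 0.52 and the phosphatidylcholine enzyme Chpt1 by -2.35 ± 0.22. The tumors lay below the lower quartile of the arrays for Trhde (3.84 to 4.01) and Mogat1 (3.64 to 3.96). The sodium-calcium exchanger Slc8a1 (-2.48 ± 0.87) was even in the tumors but not in NTL (4.76 to 8.36), its change was -1.23 with the mean of its probe sets, and its call was lost without tumor replicate 2, tumors 1 and 4, or NTL replicates 2 or 3, among others, with an adjusted p up to 0.0879.

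The tumors differed from each other more than NTL livers did. The median SD of a gene over 5 arrays was 0.164 in tumors and 0.116 in NTL, and 277 genes had an SD of at least 1 in tumors, against 15 in NTL. Of the 1089 called genes with a 2-fold change, 379 had every tumor at least 1 log2 unit from the NTL mean in that direction. Tumor 1 lay nearest to NTL: 1005 genes were at least 2-fold from the NTL mean in it, against 1326 to 1465 in the other tumors. Tumors 3 and 5, which share a stem, were the most alike: their changes from the NTL mean correlated at 0.924 across 18820 genes, and 108 genes differed at least 2-fold between them. Tumors 1 and 4, which also share a stem, correlated at 0.78 and differed at least 2-fold in 460 genes. The 8 pairs of different stems correlated at 0.659 to 0.79 and differed in 584 to 803 genes. All pairs share the same NTL mean, and genes are not independent replicates.

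Tumors 3 and 5 stood apart from tumors 1, 2 and 4 in genes of liver zonation. The lists of 24 pericentral and 15 measured periportal genes were written after these values had been seen and get no test. The median difference of the list from the NTL mean was -1.18, -2.0, 0.70, -1.71 and 0.17 in tumors 1 to 5. Both tumors 3 and 5 exceeded tumors 1, 2 and 4 in 21 of 24 pericentral genes, an order seen in 12.9% of all genes.

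Glul, glutamine synthetase, read 10.76, 9.21, 12.71, 10.49 and 12.31 in the tumors, against 11.97, 12.29, 12.16, 12.07 and 11.99 in NTL. Lgr5, a receptor for R-spondins and a known Wnt target, read 6.59, 5.81, 10.21, 7.38 and 10.49 in the tumors, against 6.97, 7.72, 7.49, 7.25 and 7.93 in NTL. Tumors 3 and 5 were above every NTL array for both genes, and tumors 1 and 2 were below every NTL array. Axin2, a Wnt feedback gene, read 5.62, 5.05, 8.24, 5.91 and 7.99 in the tumors, against 7.01, 7.22, 6.52, 6.95 and 7.53 in NTL, and the glutamate transporter Slc1a2 read 7.78, 5.92, 10.88, 7.26 and 10.06 in the tumors, against 9.81, 10.35, 10.32, 10.07 and 9.85 in NTL. Lhpp, a phosphatase, read 7.67, 7.88, 10.98, 6.86 and 10.76 in the tumors, against 9.82, 10.09, 10.10, 9.83 and 9.63 in NTL, with the same division. The ammonium transporter Rhbg (6.56, 5.66, 9.27, 5.97 and 9.49, against 7.69 to 8.21 in NTL), the transcription factor Tbx3 (7.17, 6.47, 9.92, 6.72 and 9.38, against 8.67 to 9.21) and ornithine aminotransferase, Oat (8.89, 9.74, 12.06, 8.61 and 11.68, against 11.46 to 12.05), followed it as well.

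Pericentral P450 genes were kept in tumors 3 and 5 to different degrees. Cyp1a2, a P450 enzyme of the pericentral zone, read 9.83, 8.60, 12.24, 9.53 and 12.37 in the tumors, against 12.04, 12.50, 12.33, 12.17 and 12.23 in NTL, so that tumors 3 and 5 lay within the NTL range. Cyp2c37 read 9.04, 8.89, 11.58, 8.50 and 11.53 in the tumors, against 12.60, 12.99, 12.79, 12.62 and 12.66 in NTL, and Cyp27a1 10.74, 10.60, 11.84, 10.34 and 11.79, against 12.30, 12.44, 12.41, 12.30 and 12.33, so that these were below NTL in all 5 tumors. Of the 24 genes, 8 were called lower and 0 higher over all tumors, against backgrounds of 14.1% and 14.4% of all genes (12 lower and 0 higher by limma at an unadjusted p under 0.05), and 14 were called lower without tumors 3 and 5, but 4 without tumor 2. Slc13a3, a dicarboxylate transporter, read 9.03, 9.56, 12.57, 10.11 and 12.39 in the tumors, against 9.23 to 9.80 in NTL, and outside the list Sfrp2, a secreted Wnt-binding protein, read 4.08, 4.19, 6.85, 4.19 and 7.69, against 4.17 to 4.5.

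Many periportal genes were lower in tumors 3 and 5. Gldc, of the glycine cleavage system, read 9.82, 10.86, 6.47, 10.37 and 5.65 in the tumors, against 10.43, 10.49, 10.01, 10.43 and 10.35 in NTL, and the histidine-degrading enzyme Hal read 10.57, 11.97, 7.72, 11.06 and 7.83 in the tumors, against 11.43, 11.25, 11.37, 11.44 and 11.27 in NTL. Tumors 3 and 5 lay more than 3 log2 units below every NTL array in both genes, whereas tumor 2 lay above them all and tumor 1 below them all by a smaller margin. Hsd17b13, a lipid droplet protein, read 11.66, 11.66, 9.18, 11.60 and 9.24 in the tumors, against 10.92, 10.74, 10.77, 10.98 and 10.79 in NTL, so tumors 1, 2 and 4 were above NTL and tumors 3 and 5 below it. Cyp2f2 read 11.37, 11.26, 7.51, 10.39 and 9.03 in the tumors, against 13.21 to 13.33 in NTL, and was below NTL in all 5. Over the 15 genes, tumors 3 and 5 were both below tumors 1, 2 and 4 in 11, while tumors 1, 2 and 4 were all above the NTL range in 5 and all below it in 4. The first order was seen in 15% of all genes, and the median differences from NTL were -0.45, 0.27, -1.29, -0.29 and -1.28 in tumors 1 to 5. The cadherin Cdh1 was the exception in size, with 10.14, 9.89, 10.46, 10.46 and 10.04 in the tumors, against 7.26, 7.47, 7.55, 7.46 and 7.45 in NTL, a change of 2.71 ± 0.66 (adjusted p = 0.00243) that all tumors shared.

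**Figure D2:**
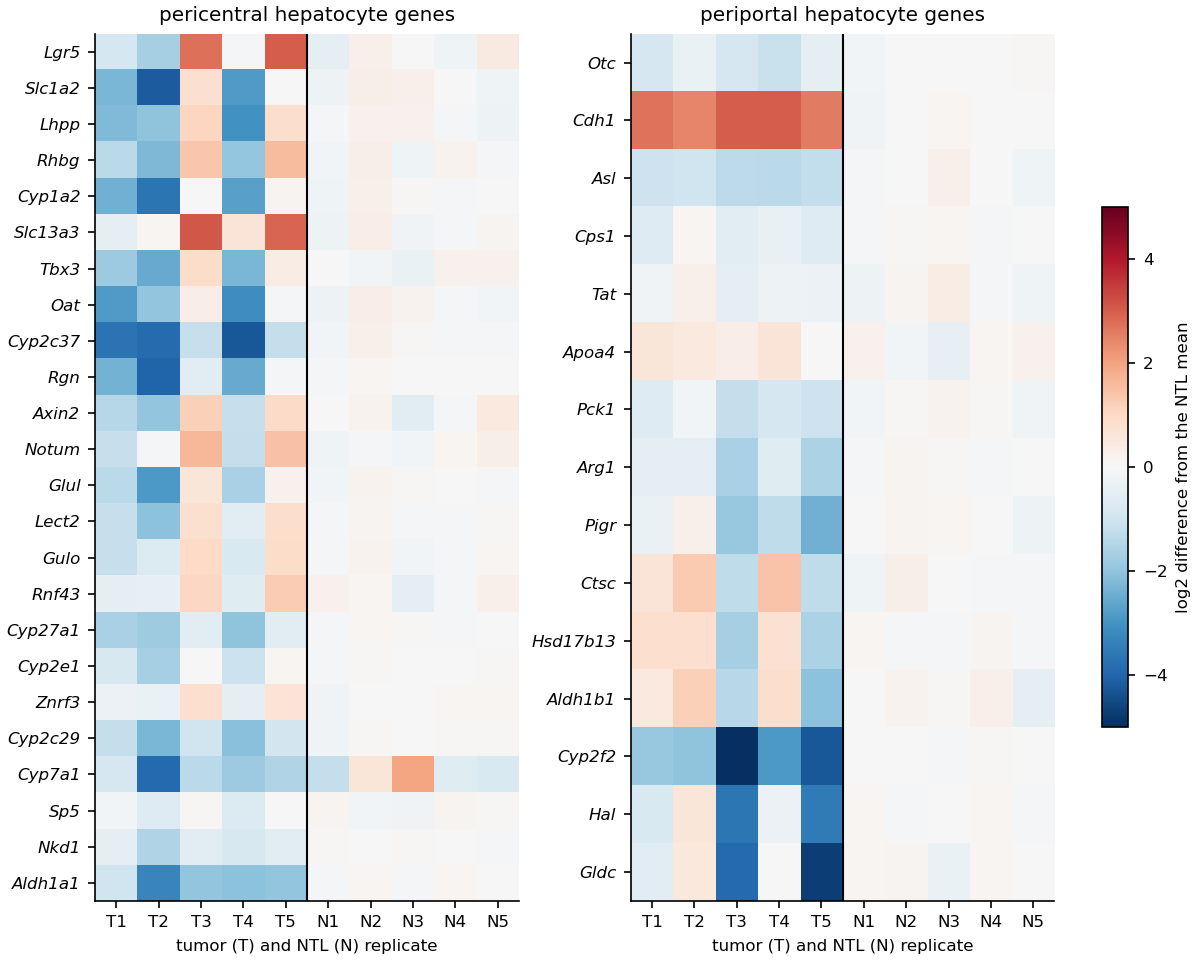
Log2 difference from the NTL mean (colour) of pericentral (left) and periportal (right) genes in tumor replicates 1 to 5 (T1 to T5) and NTL replicates 1 to 5 (N1 to N5). Rows are ordered by the difference between tumors 3 and 5 and the other tumors. T3 and T5 are red or pale in most pericentral rows and blue in the lower periportal rows. T1, T2 and T4 are blue in most pericentral rows and mixed in the periportal ones.

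Tumors 3 and 5 also differed from the others in genes of mitosis, a list likewise written after its values had been seen. All 11 measured mitosis genes were called higher, against 14.4% of all genes. Their median differences from NTL were 1.99, 1.75, 0.61, 2.51 and 0.83 in tumors 1 to 5, so tumors 3 and 5 showed the smaller rises. Both were below tumors 1, 2 and 4 in 11 of 11 genes, an order seen in 15% of all genes. Mki67, the proliferation antigen, read 8.68, 7.92, 6.65, 9.18 and 7.25 in the tumors, against 5.63, 6.56, 5.87, 5.67 and 5.41 in NTL. The keratins Krt20 (6.74, 6.96, 4.04, 7.38 and 4.06, against 3.95 to 4.59 in NTL) and Krt23 (8.63, 8.52, 5.06, 7.04 and 4.73, against 5.55 to 6.27) were high in tumors 1, 2 and 4 and lower in tumors 3 and 5. The Krt20 change of 1.89 was 2.88 without tumors 3 and 5, and its call was lost with the replicate block (adjusted p = 0.0658).

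Other genes that separated tumors 3 and 5 were chosen by the size of the gap after their values had been seen. Sult1e1, the estrogen sulfotransferase, read 4.27, 5.15, 10.47, 4.25 and 11.92 in the tumors, against 4.67 to 5.74 in NTL, the widest gap of this kind. Cyp26a1, which degrades retinoic acid, read 4.93, 5.07, 8.72, 4.64 and 8.83, against 6.61 to 8.46, and the vasopressin receptor Avpr1a 7.59, 6.70, 10.64, 6.34 and 10.54, against 7.46 to 8.57. In the other direction the growth factor Nrg4 read 8.96, 8.40, 5.62, 9.48 and 5.95, against 7.03 to 8.51. Tumor 5 was alone above the rest for the sulfotransferase Sult3a1 (3.09, 3.06, 4.91, 3.03 and 8.22, against 2.99 to 4.41) and above tumor 3 for Cyp3a16 (3.31, 3.83, 6.63, 4.52 and 7.86, against 3.88 to 4.16), genes known as female-predominant in mouse liver.

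Tumor 1 lacked several genes that marked the other tumors. Csn3, kappa-casein, read 4.20, 10.23, 9.65, 9.71 and 9.74 in the tumors, against 4.89, 5.91, 4.17, 5.29 and 5.05 in NTL. The calcium channel gene Cacna1b read 5.03, 9.08, 9.55, 9.61 and 9.98 in the tumors, against 5.30, 5.38, 5.34, 5.48 and 5.27 in NTL, and the bone morphogenetic protein Bmp7 6.71, 10.66, 9.88, 10.40 and 10.07, against 6.81, 6.92, 6.90, 7.02 and 6.56. Tumor 1 was within or below the NTL range in all 3, while the other 4 tumors were more than 2 log2 units above it. Alpha-fetoprotein, Afp (6.44, 9.96, 11.96, 11.91 and 11.36, against 6.53 to 7.18), glypican 3, Gpc3 (6.35, 9.41, 12.19, 11.76 and 12.05, against 6.96 to 7.54), and the cholesterol carrier Npc1l1 (5.67, 9.51, 9.69, 8.53 and 9.32, against 5.31 to 5.96) also separated tumor 1 from the others. The Gpc3 call was lost without tumor replicate 4 (adjusted p = 0.0554). In reverse, tumor 1 alone kept Cyp2j5 (11.56, 7.89, 8.27, 9.28 and 8.45, against 11.87 to 12.08) and Foxp2 (6.78, 4.58, 4.53, 4.69 and 4.58, against 6.71 to 7.22) at or near NTL levels.

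Tumor 2 carried high levels of genes that the others lacked. Mmd2 read 5.15, 10.56, 5.02, 4.43 and 5.13 in the tumors, against 6.13, 5.93, 7.08, 6.41 and 5.58 in NTL, the adhesion molecule Ceacam2 5.62, 10.68, 4.95, 5.95 and 4.54, against 5.55, 5.89, 6.11, 6.11 and 5.41, and the fetal growth factor Igf2 5.81, 10.02, 6.18, 6.11 and 7.08, against 5.89, 5.60, 6.59, 6.0 and 5.76. The call of Igf2 (1.57 ± 0.57, adjusted p = 0.0403) rested on this tumor: without it the change was 0.33 (adjusted p = 0.67), and the call was also lost without tumor replicates 4 or 5 or without NTL replicates 1, 2, 4 or 5. Ocstamp, a transmembrane protein known from osteoclasts, was highest in tumor 2 as well (6.53, 12.04, 8.03, 10.21 and 8.00, against 6.18 to 6.46), and its change was 3.15 with tumor 2 and 1.87 without it. Alox5, arachidonate 5-lipoxygenase, was high in tumors 1 and 4 alone (8.67, 4.5, 5.68, 8.86 and 5.19, against 4.93 to 5.18), the pair that shares a stem. Vil1, the brush-border protein villin, was high in tumors 2, 3 and 5 (5.19, 9.09, 10.33, 5.03 and 9.23, against 4.81 to 5.23), and its call was lost with the replicate number as a block (adjusted p = 0.0694). The imprinted non-coding RNA Meg3 was high in tumors 3, 4 and 5 (6.77, 7.38, 10.44, 10.47 and 10.80, against 6.77 to 7.46) and was not called (1.76 ± 0.74, adjusted p = 0.0761), and the hormone Stc1 was highest in tumors 3 and 5 (5.23, 6.26, 9.79, 7.69 and 9.54, against 4.34 to 4.72), with a change of 2.87 that was 1.77 without them.

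Whole chromosomes differed among the tumors. For each chromosome the median difference from the NTL mean was taken over genes with a mean level above 6 (9927 genes), relative to the same median over all of them. No NTL array, set against the other 4, lay outside -0.045 to 0.03 on any chromosome but Y. Tumor 2 departed by 0.34 on chromosome 15, 0.24 on 18, 0.19 on 2, 0.18 on 1, -0.26 on 8 and -0.29 on 12. With each chromosome cut into 4 runs of neighbouring genes, the 4 medians of tumor 2 ran from 0.27 to 0.39 on chromosome 15 and from -0.44 to -0.19 on chromosome 12, all of one sign. Tumor 3 departed by 0.18 on chromosome 1 and -0.12 on 8, and tumor 5, of the same stem, by 0.04 and 0.01. Tumor 4 departed by 0.14 on chromosome 15, and tumor 1 by 0.08 there. The arrays measured RNA, and DNA was not measured.

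The Y-linked genes set tumor 2 apart again. Eif2s3y read 8.95, 6.73, 8.98, 8.87 and 8.92 in the tumors, against 9.08 to 9.20 in NTL, Uty 7.99, 6.32, 8.46, 8.15 and 8.19, against 8.09 to 8.31, and Kdm5d 7.81, 6.19, 7.92, 7.83 and 7.95, against 7.80 to 7.86. Tumor 2 was below every other tumor and every NTL array in these genes, yet above the control array with high Xist, which read 4.85, 4.37 and 4.67.

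**Figure D3:**
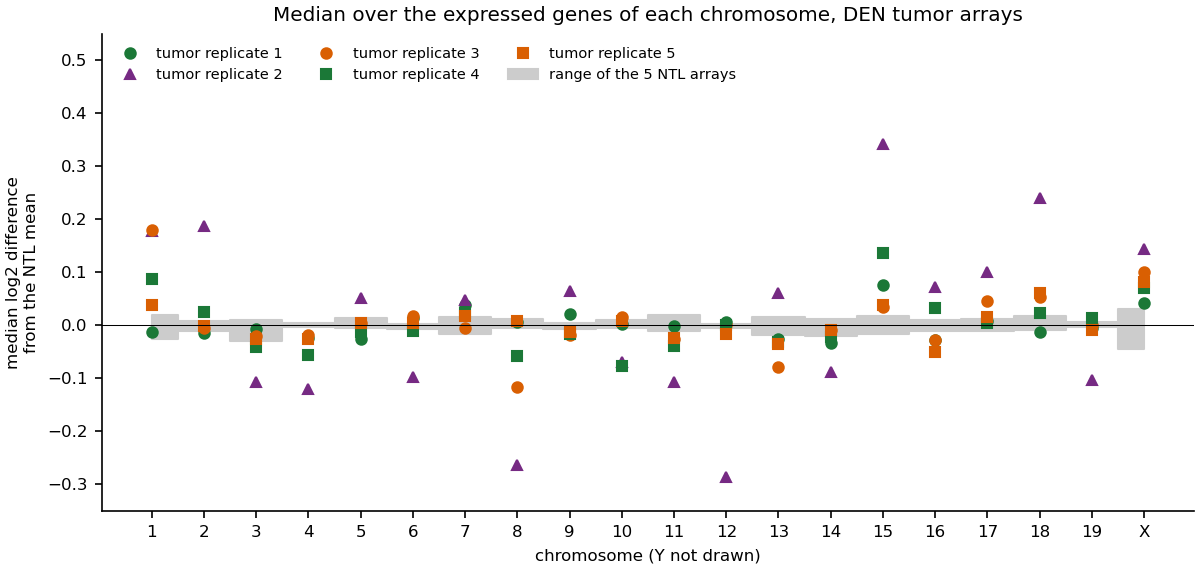
Median log2 difference from the NTL mean (y axis) over the expressed genes of each chromosome (x axis), relative to all chromosomes, for the 5 tumor arrays, with the range of the 5 NTL arrays in grey. Tumor 2 (triangles) lies outside the grey range on all 20 chromosomes drawn, from -0.29 on chromosome 12 to 0.34 on chromosome 15, and tumor 3 reaches 0.18 on chromosome 1 and -0.12 on chromosome 8.

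Signalling genes were read from lists, as counts of called members beside the 14.4% of all genes called higher and the 14.1% called lower. The median change over all genes was -0.04. Of 22 measured genes of ERK output and feedback, 15 were higher and 1 lower, with a median change of 0.76. The phosphatase Dusp5 read 8.05, 7.69, 8.52, 9.40 and 8.95 in the tumors, against 6.78, 6.63, 6.74, 6.76 and 6.57 in NTL, a change of 1.69 ± 0.16. Its relatives Dusp4 (0.98) and Dusp6 (1.10), the Sprouty and Spred inhibitors Spry4 (0.72), Spred1 (0.99) and Spred2 (0.78), the ETS factors Etv4 (0.53) and Etv5 (0.87), and cyclin D1, Ccnd1 (1.54 ± 0.45), rose. The member called lower was another ETS factor, Etv1 (-0.34 ± 0.13), whose call was lost in 13 of 21 alternatives, among them without tumor replicates 2, 3 or 4 or NTL replicates 2, 3, 4 or 5. Tumor 1 had the smallest median difference for the list, 0.18, and the others ran from 0.67 to 0.95. It also had the smallest median difference over all genes called higher, 0.45, against 0.53 to 0.62 in the other tumors. Braf (8.59 to 8.83 in tumors, 8.73 to 8.79 in NTL) and Egfr (11.42 to 11.95 and 11.33 to 11.81) overlapped and were not called.

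Of 32 measured receptor kinases and their ligands 9 were higher and 4 lower, and the called rises were of ligands apart from the receptor Kit (0.74). Nrg1, a neuregulin, changed by 1.92 ± 0.35, the EGF receptor ligand Hbegf by 1.52 ± 0.20, betacellulin, Btc, by 1.30 and the platelet-derived factor Pdgfb by 1.37 ± 0.22. The receptor Erbb4 read 7.20, 4.61, 4.95, 5.48 and 4.57 in the tumors, against 7.62, 7.75, 7.72, 7.72 and 7.84 in NTL, a change of -2.49 ± 0.39, with tumor 1 nearest to NTL, and hepatocyte growth factor, Hgf, changed by -1.64. Of 16 Notch pathway genes 10 were higher and 1 lower, among them the ligand Dll4 (1.40 ± 0.19), the targets Hes1 (1.11 ± 0.20) and Hey1 (0.90 ± 0.16) and the feedback regulator Nrarp (1.57 ± 0.18). Of 22 Wnt feedback genes and ligands none was higher and 3 were lower (2 and 7 by limma at an unadjusted p under 0.05). The called ones were Rspo3 (5.83, 5.24, 5.10, 6.61 and 5.24 in the tumors, against 7.16 to 7.58 in NTL, a change of -1.85 ± 0.20), an R-spondin made by central vein endothelium, Wnt2 (-1.11 ± 0.17) and Wnt9b (-0.32 ± 0.10), whose call was lost without tumor replicates 2 or 3 or NTL replicate 4.

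YAP targets had 6 of 25 higher and 1 lower, and 3 higher without tumors 3 and 5. Of 24 genes of TGF-beta, BMP and activin signalling, 6 were higher and 8 lower, with 4 or 5 lower when tumors 3 and 5, tumor 1, tumor 2 or NTL replicate 5 were left out. The activin subunits diverged: Inhbb, subunit beta B, read 5.82, 8.83, 8.70, 7.92 and 7.35 in the tumors, against 5.19 to 6.07 in NTL, a change of 2.28 ± 0.30, whereas the liver subunits Inhbe and Inhbc changed by -2.51 ± 0.43 and -1.12 ± 0.22. Among 18 genes of the growth hormone axis 3 were higher and 3 lower, or 6 higher with each array as a replicate. Igfals, which carries IGF1 in blood, changed by -2.44 ± 0.22 and Igf1 by -1.48, while the binding protein Igfbp1 changed by 2.57 ± 0.55 and the leptin receptor Lepr by 2.70 ± 0.64. Of 25 hypoxia response genes 6 were higher and 5 lower, and 3 were higher without tumors 3 and 5 or with the replicate block. Both tumors 3 and 5 exceeded tumors 1, 2 and 4 in 15 of the 25, an order seen in 12.9% of all genes. The oxidoreductase Ero1a read 8.58, 8.76, 10.52, 8.52 and 9.04, against 8.35 to 8.43 in NTL, and Ndrg1 9.83, 10.18, 12.20, 9.57 and 11.91, against 8.64 to 8.95, with tumor 3 the highest in both. The Ero1a change of 0.63 was 0.39 without tumor 3 and 0.26 without tumors 3 and 5, where its call was lost, and that of Ndrg1 (1.83) was 1.13 without tumors 3 and 5.

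Of 25 genes of the methionine and folate cycles 16 were lower and 4 higher, with a median change of -0.67. Gnmt, the glycine N-methyltransferase that uses up S-adenosylmethionine, read 10.82, 11.62, 11.10, 10.00 and 11.15 in the tumors, against 12.53, 12.55, 12.71, 12.36 and 12.43 in NTL, a change of -1.46 ± 0.20. The betaine and phosphatidylethanolamine methyltransferases Bhmt and Pemt changed by -1.27 ± 0.13 and -1.26 ± 0.14, and cystathionine gamma-lyase, Cth, by -1.19 ± 0.17. The 4 that rose were all folate enzymes of mitochondria: Aldh1l2 (1.23 ± 0.19), Mthfd1l (1.13), Mthfd2 (1.01) and Mthfd2l (1.00), while the cytosolic Mthfd1 (-0.75), Shmt1 (-0.69) and Aldh1l1 (-0.80) and the mitochondrial Shmt2 (-0.67) fell. Amino acid transporters had 7 of 27 higher and 2 lower, led by the neutral carrier Slc1a4, at 8.37, 8.66, 11.07, 8.03 and 9.94 in the tumors, against 6.35 to 6.62 in NTL (2.68 ± 0.55), and Slc43a1 (1.73 ± 0.30).

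Of 27 aldehyde and aldo-keto enzymes 13 were lower and 3 higher. The retinaldehyde dehydrogenase Aldh1a1 changed by -2.25 ± 0.28, Akr1d1, of bile acid synthesis, by -1.88 ± 0.20 and Adh4 by -1.83 ± 0.24. Akr1c18, which inactivates progesterone, ran against the list, with 11.85, 12.48, 12.51, 12.73 and 12.69 in the tumors, 9.21 to 9.92 in NTL and a change of 2.89 ± 0.34; its mean was 4.21 in untreated livers. Of 23 genes of gluconeogenesis and glycogen 10 were lower and 3 higher, with the glucose transporter Slc2a2 at 9.96, 7.59, 8.37, 9.57 and 8.73 in the tumors, against 10.88 to 11.25 in NTL (-2.43 ± 0.25), and the branching enzyme Gbe1 at -1.47 ± 0.19. Glutathione transferases had 5 of 18 lower and none higher (1 higher at an unadjusted p under 0.05), with 10 lower after centring of the arrays and 8 with the replicate block, led by Mgst1 (-1.21 ± 0.12) and Gstk1 (-1.05 ± 0.09). Of 33 iron, heme and metal genes 13 were lower and 2 higher, and 8 were lower without tumor 2 or NTL replicate 3. Cpox, of heme synthesis, changed by -1.71 ± 0.19. The iron hormone Hamp read 11.61, 9.94, 10.38, 10.53 and 9.65 in the tumors, against 12.06 to 12.56 in NTL (-1.93 ± 0.68), and its call was lost without tumor replicates 2 or 4 or NTL replicates 3 or 5, with an adjusted p up to 0.12.

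Structural lists had more members called higher than lower, though the median change of S100 proteins and annexins was only 0.02. Of 30 junction and adhesion genes 14 were higher and 1 lower, among them Cdh1, the tricellular junction protein Marveld2 (1.43 ± 0.14), the adhesion molecule F11r (1.22 ± 0.09) and the scaffold Tjp1 (0.80 ± 0.09). Of 27 cytoskeletal genes 13 were higher and none lower (1 lower at an unadjusted p under 0.05), with the actin-binding Tagln2 at 10.42, 11.32, 10.44, 10.69 and 10.46 in the tumors, against 7.99 to 8.45 in NTL (2.51 ± 0.25), and the tubulins Tuba8 (2.32 ± 0.55) and Tubb6 (2.01 ± 0.26). Of 23 S100 proteins and annexins 8 were higher and 1 lower, led by annexin A2, Anxa2, at 9.91, 10.74, 10.65, 10.63 and 10.59 in the tumors, against 7.44 to 7.93 in NTL (2.90 ± 0.41). Extracellular proteases and inhibitors had 15 of 31 higher and 2 lower, but 6 higher without tumors 3 and 5. The membrane protease Mmp14 changed by 1.41 ± 0.19. The plasminogen activator Plat (6.21, 5.74, 7.97, 6.70 and 8.61, against 4.69 to 5.34) changed by 1.75 ± 0.62, or by 1.02 without tumors 3 and 5, and its call was lost there and without NTL replicate 5.

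Apoptosis regulators rose on both sides of the balance, with 11 of 23 higher and 1 lower: the killers Bcl2l11 (1.60 ± 0.25), Bok (1.41 ± 0.16) and the receptor Tnfrsf10b (1.66 ± 0.29), and the protectors Bcl2 (0.74), Bcl2l1 (0.73) and Mcl1 (0.54). Of 21 genes of DNA methylation and Polycomb 9 were higher and none lower (1 lower at an unadjusted p under 0.05), all by less than 1 log2 unit. The cell cycle inhibitor Cdkn2b read 5.85, 7.02, 6.93, 8.84 and 7.23 in the tumors, against 5.43 to 5.72 in NTL (1.62 ± 0.12), and Cdkn2a changed by 0.46 ± 0.08. Of 32 hepatocyte transcription factors 9 were lower and 5 higher: the cut factor Onecut2 changed by -1.74 ± 0.37 and the bile acid receptor Nr1h4 by -1.16 ± 0.14, while Sox4, low in mature liver, changed by 2.14 ± 0.32. With the replicate block 2 of these factors were higher.

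Other lists had members called in both directions. Gut and secretory genes had 10 of 32 higher and 3 lower, retinoid genes 4 of 23 higher and 5 lower, and lysosome and autophagy genes 4 of 23 higher and 4 lower. Glypicans and syndecans had 5 of 14 higher and 4 lower, or 1 lower without tumors 3 and 5, and imprinted genes 6 of 24 higher and 4 lower, or 3 higher without tumor 4. Among them, the placental growth regulator Phlda2 changed by 2.10 ± 0.55, with its call lost without tumor 2 (adjusted p = 0.0565), and decorin, Dcn, a proteoglycan that binds collagen, by -1.27 ± 0.27. The retinol dehydrogenases Dhrs9 and Rdh16 changed by 2.57 ± 0.45 and -2.02 ± 0.39.

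**Figure D4:**
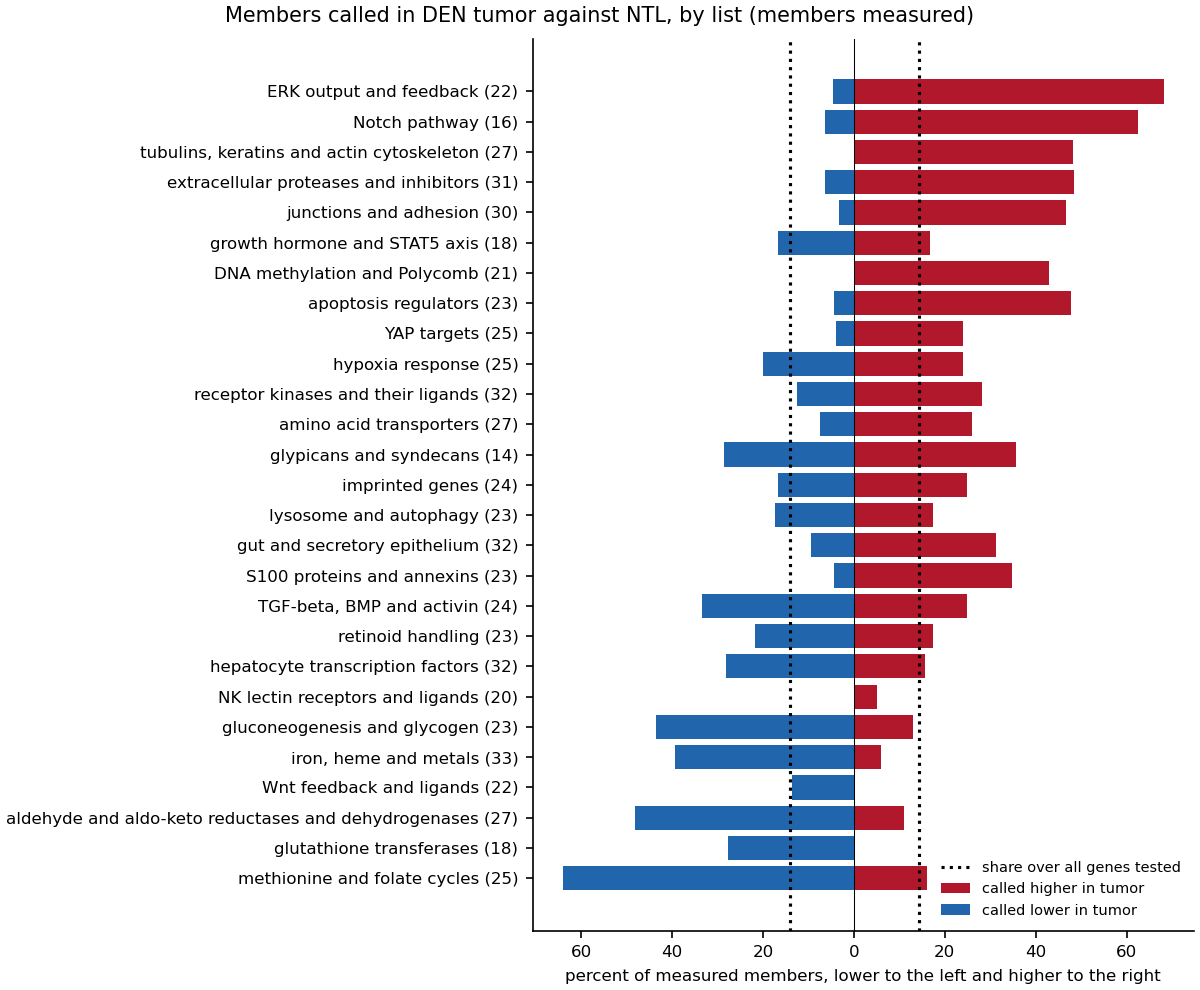
Share of the measured members of each list (members in brackets, y axis) called higher (right, red) or lower (left, blue) in DEN tumors against NTL, with the shares over all genes tested, 14.4% higher and 14.1% lower, as dotted lines. Of these lists, ERK output and Notch genes stand furthest to the right and methionine and folate genes furthest to the left.

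Markers of other liver cells were also read from lists, and their part in the results was not tested. Their counts stand beside the same shares over all genes, 14.4% called higher and 14.1% called lower. All 10 Kupffer cell markers were called lower, with a mean level of 6.74 to 7.91 in tumors and 8.71 to 9.50 in NTL, and Cd163 changed by -2.77 ± 0.40. Of these calls, that of C6 was lost without tumor replicate 2. Of 10 vascular endothelial markers 6 were higher and 1 lower (7.96 to 8.29 in tumors, 7.33 to 7.51 in NTL), with Esm1 at 2.75 ± 0.28, Cd34 at 2.33 ± 0.36 and the fatty acid carrier Cd36 at -1.59 ± 0.31. Of 10 sinusoidal endothelial markers 3 were lower and 1 higher, with 6 lower under array weights and none without tumors 3 and 5, whose median differences were -1.20 and -1.19, against -0.29, -0.28 and -0.01 in tumors 1, 2 and 4.

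Of 9 cholangiocyte markers Prom1, Sox9 (1.98 ± 0.26) and Cldn7 (0.75) were higher, and 6 were without tumor 2, while the keratins Krt7 (5.26 to 6.45 in tumors, 5.69 to 6.25 in NTL) and Krt19 (4.58 to 5.49 and 5.02 to 5.34) overlapped and were not called. Of 12 stellate cell and fibroblast markers 6 were lower, among them the retinol-storing enzyme Lrat (-1.64 ± 0.32), and 2 higher, among them smooth muscle actin, Acta2 (1.76 ± 0.46). Monocyte-derived markers had 3 of 8 higher and 1 lower, led by Cd9 (1.77 ± 0.25), T cell markers 1 of 9 lower (Cd3e, -1.49 ± 0.22) and none higher (0 at an unadjusted p under 0.05), and B and plasma cell markers 1 of 9 in each direction, with 4 lower in each of the lymphocyte lists after centring. None of 9 neutrophil markers was called by limma (0 higher and 0 lower at an unadjusted p under 0.05). Erythroid, acinar and mesothelial lists had 1 higher member each of 5, 6 and 9, and 1, 1 and 2 lower members. Of the 6 acinar markers 4 were dim. Counts of 1 or 2 in lists this short are not read as a change of the list.

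The change in DEN tumors differed from that in LT tumors in 2057 genes (10.9%) and from that in MYC tumors in 2895 genes (15.4%), by limma contrasts in the same fit. In 445 genes the DEN change was positive and above both others, and in 343 it was negative and below both. Tmem54 changed by 4.38 ± 0.30 in DEN tumors, by 0.08 ± 0.34 in those of LT and by 0.07 ± 0.30 in those of MYC, and the DEN change exceeded them by 4.29 ± 0.45 and 4.31 ± 0.42 (adjusted p = 6.18e-07 and 8.56e-08). Gldn, Csn3, Asns, Bex1 and the semaphorin receptor Plxnb1 followed, with differences from LT of 3.98, 3.81, 3.28, 3.19 and 3.19 and from MYC of 4.61, 3.58, 4.45, 3.24 and 3.32. Plxnb1 read 9.89, 10.15, 9.57, 9.98 and 9.85 in the DEN tumors, against 6.83, 6.95, 6.80, 6.91 and 7.43 in DEN NTL, and its change of 2.95 was 1.45 with the mean of its probe sets.

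In the other direction stood Nat8, an acetyltransferase, Vtcn1, an inhibitory ligand of T cells, Fitm1, Cyp2c55, Csad, of taurine synthesis, and Acaa1b, a thiolase of peroxisomal fatty acid oxidation. Nat8 read 8.16, 6.69, 7.12, 6.51 and 6.70 in the DEN tumors, against 10.08, 10.34, 10.26, 10.21 and 10.11 in DEN NTL, a change of -3.22 ± 0.78, against 1.04 ± 0.90 in LT and 0.85 ± 0.78 in MYC tumors. Csad read 8.79, 7.54, 7.66, 7.71 and 7.38 in the DEN tumors, against 10.70, 10.32, 11.15, 10.82 and 10.82 in DEN NTL, a change of -2.99 ± 0.27, against 1.31 ± 0.30 in LT and 0.28 ± 0.27 in MYC tumors. Vtcn1 changed by -2.68 ± 0.28, against 1.05 ± 0.32 in LT and 1.5 ± 0.28 in MYC tumors. The call of Cyp2c55 in DEN (-2.63 ± 0.78) was lost without tumor replicate 2 and without tumors 1 and 4, with an adjusted p up to 0.0723.

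**Figure D5:**
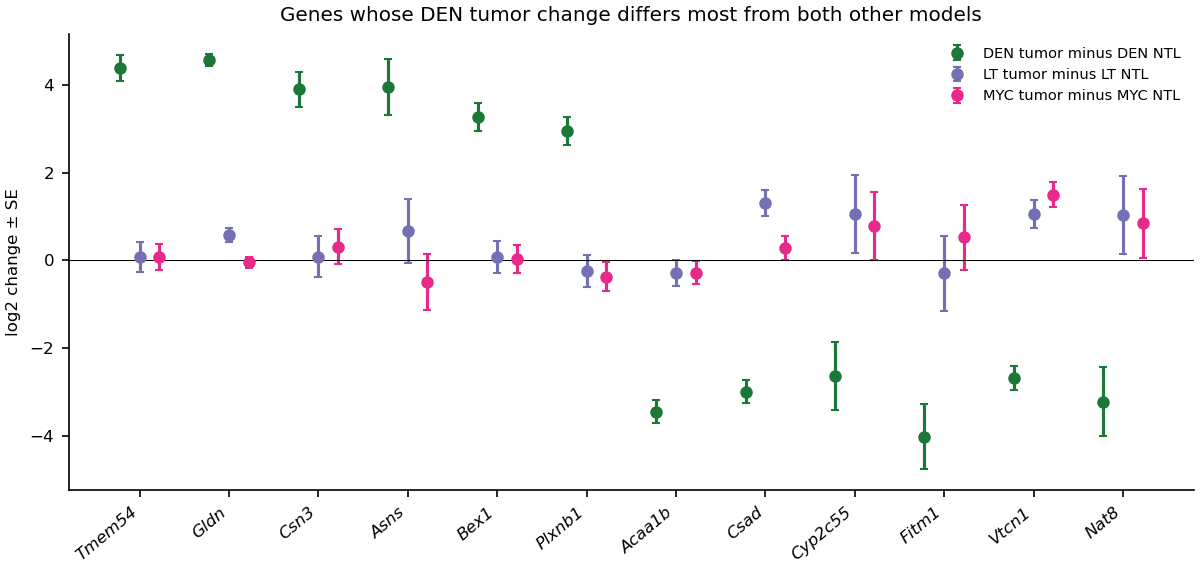
Log2 change between tumor and NTL (y axis, points with SE) in the DEN, LT and MYC models for the 12 genes (x axis) whose DEN change differed most from both others. The DEN points lie between 2.95 and 4.56 for Plxnb1 and the other 5 genes on the left, and between -4.02 and -2.63 on the right, while the LT and MYC points lie between -0.49 and 1.5.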

How the data were processed

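The series holds 35 mouse liver samples on Affymetrix Mouse Gene 1.1 ST arrays, and 10 of them, 5 DEN tumors and 5 DEN NTL, are described here. The deposited values are log2 intensities per probe set, which the authors normalized by RMA, per the submitters' processing notes. They ran from 1.81 to 14.3, and array medians from 5.59 to 5.73. Precision is limited by how many arrays there are. Of 35556 probe sets, 21218 carried 1 gene symbol in the platform annotation, 1881 several and 12457 none. The brightest probe set of each gene was kept, which gave 18820 genes. No genome build of the array is named in the sources used here.

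Tumor arrays of one identifier stem were averaged, and all 8 groups were fitted together with limma 3.58.1 in R 4.3.3 (lmFit, eBayes), with Benjamini-Hochberg adjustment over 18820 genes and a threshold of 0.05. The fit was tested on simulated data. Errors beside log2 changes are standard errors. Same-numbered tumor and NTL arrays come from different animals and did not deviate together, so the replicate number is no block in the fit.

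Named genes were the 15 largest non-overlapping rises and falls, the 8 most even changes of at least 2 log2 units each way, the 16 most uneven among tumors, the 6 each way that differed most from both other models, and up to 4 called members of each list (2 of each marker list) by size. Genes outside this rule, including all set out by 1 tumor or by tumors 3 and 5, were chosen after their values were seen. The arrays compared, the gene lists and the tests were chosen with earlier results of these data known. Promoter sequences are from RefSeq (GRCm38.p6).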

Additional observations from a re-analysis of the deposited data

Results flagged for a closer look

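In 184 groups of 5 arrays, 19 were flagged for a value far from the other 4 by Dixon's test (critical value 0.71). Chromosome medians also had to reach a least size to be flagged. The test flags about 1 group in 20 by chance, but many groups here were genes chosen on these values, so that rate is no yardstick for the 19. Tumor replicate 1 accounted for 8 of the genes. It was low for Tspan8 (6.91, with the other tumors at 9.75 to 10.16), Prom1 (6.90, others 8.80 to 9.37), Aebp1 (7.47, others 9.52 to 10.06) and Csn3 (4.20, others 9.65 to 10.23). It was high for genes that fell, namely Cyp8b1 (8.61, others 6.11 to 6.45), Ces1g (8.99, others 6.78 to 7.20), Csad (8.79, others 7.38 to 7.71) and the thiolase Acaa1b (8.81, others 7.01 to 7.51).

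Among NTL arrays, replicate 3 was low for Bex1 (2.84, others 3.16 to 3.26), replicate 4 high for Cyp4a14 (12.33, others 12.03 to 12.09) and replicate 5 high for Plxnb1 (7.43, others 6.80 to 6.95).

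Tumor replicate 2 stood apart in its chromosome medians, at 0.188 on chromosome 2 (other tumors -0.014 to 0.026), -0.286 on chromosome 12 (others -0.016 to 0.006), 0.24 on chromosome 18 (others -0.012 to 0.061), -0.103 on chromosome 19 (others -0.008 to 0.014) and -1.782 over 4 genes of chromosome Y (others -0.187 to -0.012). Its median difference from NTL was -0.50 for cholangiocyte markers (others 0.72 to 1.13) and 0.24 for glypicans and syndecans (others 0.00 to 0.05). Tumor replicate 4 had a median difference of -0.31 for hepatocyte transcription factors (others -0.08 to -0.04).

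By limma contrasts, the DEN change was positive and above both the LT and the MYC change in 445 genes, and negative and below both in 343. The 12 given here had the largest differences, and other named genes, such as Afp and Tspan8, also differed from both. The smaller of both differences was 3.98 for Gldn, 4.29 for Tmem54, 3.28 for Asns, 3.19 for Bex1, 3.58 for Csn3 and 3.19 for Plxnb1. In the other direction it was -3.72 for Fitm1, -4.07 for Nat8, -3.73 for Vtcn1, -3.41 for Cyp2c55, -3.27 for Csad and -3.16 for Acaa1b.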

How the results depend on the processing

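Under 21 alternatives, 160 of the 204 called named genes stayed called in every one, 44 lost the call in at least 1, and none of the 204 turned its sign. With arrays centred on the median, 4096 genes were called lower, against 2661 as reported, and the median change over all genes was -0.12 rather than -0.04. Leaving out 1 array gave 4250 (without tumor replicate 2) to 5886 (without tumor replicate 1) called genes. Same-numbered tumor and NTL arrays did not deviate together (correlations of -0.044 to 0.054, and 0 tumor arrays closest to their own number), and with the replicate block 4763 genes were called. Of genes that were not called, Egfr ran from -0.141 to 0.0109 when 1 array was left out, with a turned sign without tumor replicate 2, and Alb stood at -0.0284 with arrays centred, also with a turned sign. Of the uneven genes that were not called, 6 turned in sign when tumor arrays were left out: Lgr5 (-1.07), Gldc (0.14), Hal (0.05) and Cyp3a16 (-0.10) without tumors 3 and 5, Alox5 (-0.10) without tumors 1 and 4, and Ceacam2 (-0.55) without tumor replicate 2. Of 88 list counts, 16 moved by over 1.5 times and by 3 or more. Beside those given with the lists, periportal genes called lower numbered 3 as reported and 6 or 7 with array weights, each array a replicate, the stem as a random block, the replicate block or without tumor replicate 2, and growth hormone axis genes called higher numbered 3 as reported and 6 with the stem as a random block, the replicate block or the groups compared alone. The causes were not tested. With 3 tumor stems, small changes in genes that vary among tumors are not resolved.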

Other observations

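Single tumors stood apart for further genes, chosen after their values were seen and given without a test. The hormone erythropoietin, Epo, read 3.66, 3.65, 6.62, 3.65 and 4.70 in the tumors, against 3.73, 3.48, 3.54, 3.78 and 3.61 in NTL, with tumor 3 the highest and tumor 5 next. The chemokine Cxcl17 read 5.68, 5.66, 5.69, 7.85 and 5.78 in the tumors, against 5.94, 5.74, 5.82, 5.88 and 5.49 in NTL, with tumor 4 alone above the rest. The melanosomal and macrophage glycoprotein Gpnmb read 6.03, 8.27, 5.27, 5.42 and 4.54 in the tumors, against 4.64, 5.08, 5.02, 4.41 and 4.25 in NTL, and the steroid hydroxylase Cyp17a1 read 9.01, 12.37, 9.75, 9.48 and 9.71 in the tumors, against 8.02, 8.19, 8.85, 7.58 and 7.69 in NTL, both with tumor 2 apart. The sodium channel gene Scn7a read 7.42, 3.38, 5.03, 4.59 and 4.65 in the tumors, against 4.19, 3.89, 3.81, 3.84 and 3.76 in NTL, with tumor 1 apart.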
